A study of Homo sapiens with 114 samples.

Results

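The comparison described here asks whether the response of HK-2 cells to the compound labelled Di was different after 48 h than after 12 h. It uses 12 arrays out of a series of 38 groups with 3 arrays each, which measured mRNA in HK-2 cells exposed to 9 compounds in order to find expression signatures of kidney toxicity. The 4 groups were cells treated with Di for 48 h, their 48 h vehicle controls, cells treated with Di for 12 h and their 12 h vehicle controls, with 3 biological replicates each. The same control cultures served the compound labelled CdCl, and the source name of the control samples mentions CdCl alone although their titles name both compounds. The labels spell out neither abbreviation and give no dose. Cells were seeded 24 h before treatment, treated at about 90% confluency, and kept in a medium with EGF, hydrocortisone, insulin, transferrin and selenite.

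HK-2 is a line of human proximal tubule cells immortalized with papillomavirus oncogenes, one of which promotes the breakdown of the tumour suppressor p53. The proximal tubule takes up filtered solutes and toxicants through transporters and cotransporters of its apical and basal membranes, and it is a frequent site of drug and metal injury. Cells under chemical stress switch on a small number of transcription programmes, among them the NRF2 response to electrophiles and oxidants, the heat shock response to unfolded cytosolic protein, the integrated stress response to amino acid shortage or endoplasmic reticulum stress, and metallothionein induction by metal ions. Some of these are usually engaged within hours and others build up or change as exposure goes on.

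Each value is the deposited log2 level of 1 probe set per gene. A gene's response at one time is the mean of the 3 Di arrays minus the mean of the 3 control arrays of that time, in log2 units, so that a response of 1 is a 2-fold change. The interaction is the 48 h response minus the 12 h response. All changes carry ± 1 standard error from limma, and all p-values are limma's, adjusted by the Benjamini-Hochberg method over the 11045 genes tested. A gene was called when its adjusted p was under 0.05. Levels below 4 are close to the background of the arrays, so a change that starts or ends there understates the true ratio.

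Replicates correlated at r = 0.985 to 0.995 over all genes within the 4 groups. The upper quartile of all levels was 6.76 to 6.92 on the 48 h Di arrays, against 6.92 to 7.03 on their controls, and 6.78 to 7.01 on the 12 h Di arrays, against 6.99 to 7.06 on theirs, with 1 array of low quartile in each Di group. The ratio of 3′ to 5′ ACTB signal, a measure of RNA integrity, was 1.54 to 1.74 with Di, against 1.46 to 1.68 in the controls, at 48 h, and 1.23 to 1.55, against 1.82 to 2.09, at 12 h, in log2 units. The 12 h groups thus did not overlap in this ratio. Its part in the 12 h responses was not tested. Of 14 proximal tubule and epithelial markers, 7 exceeded 4 on all 12 arrays (KRT8, KRT18, KRT19, PAX8, CDH16, CDH6 and EPCAM) and the other 7 stayed below it on all 12, among them LRP2, CUBN, AQP1 and SLC34A1, which define the mature proximal tubule. All 4 leukocyte markers and 5 of 6 endothelial markers were below 4 throughout.

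The response to Di was mostly a 48 h response. The interaction was called for 3715 of 11045 genes (33.6%), of which 1929 (17.5%) were higher (the 48 h response lay above the 12 h response) and 1786 (16.2%) were lower. Counts of list members below are to be read beside these shares. At least 2-fold interactions were found for 1312 genes (11.9%), 630 (5.7%) higher and 682 (6.17%) lower. At 48 h Di changed 5231 genes (47.4%), 2368 upward (21.4%) and 2863 downward (25.9%), and 1438 (13.0%) by at least 2-fold. At 12 h it changed 1308 genes (11.8%), 399 upward (3.61%) and 909 downward (8.23%), but only 69 (0.625%) by at least 2-fold. The balance of the 12 h calls depended on scaling: 30.5% of them were upward in the values as deposited and 52.6% of 1269 calls after quantile normalization. The same scaling turned the smaller majorities, giving 2758 genes upward and 2656 downward at 48 h and 1800 higher and 1942 lower interactions. Leaving out replicate 2 of the 12 h controls brought the 12 h count to 599.

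Of the 3715 genes, 2801 (75.4%) were called at 48 h and not at 12 h, and are referred to as having appeared at 48 h. Another 215 changed the same way at both times and more at 48 h, 7 changed the same way at both times and less at 48 h, 275 had a response at 12 h that was no longer called at 48 h, 199 responded in opposite directions, and 218 were called at neither time alone. These classes describe calls that share arrays, and a gene missing the threshold at 12 h may still have responded below it. They also rest on the 12 h calls, whose count and balance depended on the processing. The control cultures also changed: 5405 genes (48.9%) differed between the 48 h and the 12 h controls, against 6803 (61.6%) between the 48 h and the 12 h Di arrays. For the 1929 genes with a higher interaction, the median difference between 48 h and 12 h was 0.73 on the Di arrays and −0.09 on the control arrays. For the 1786 with a lower interaction, it was −1.02 on the Di arrays and −0.18 on the control arrays. Each array measures RNA from a whole culture, in which fewer cells of a kind and less RNA per cell cannot be told apart.

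**Figure D1:**
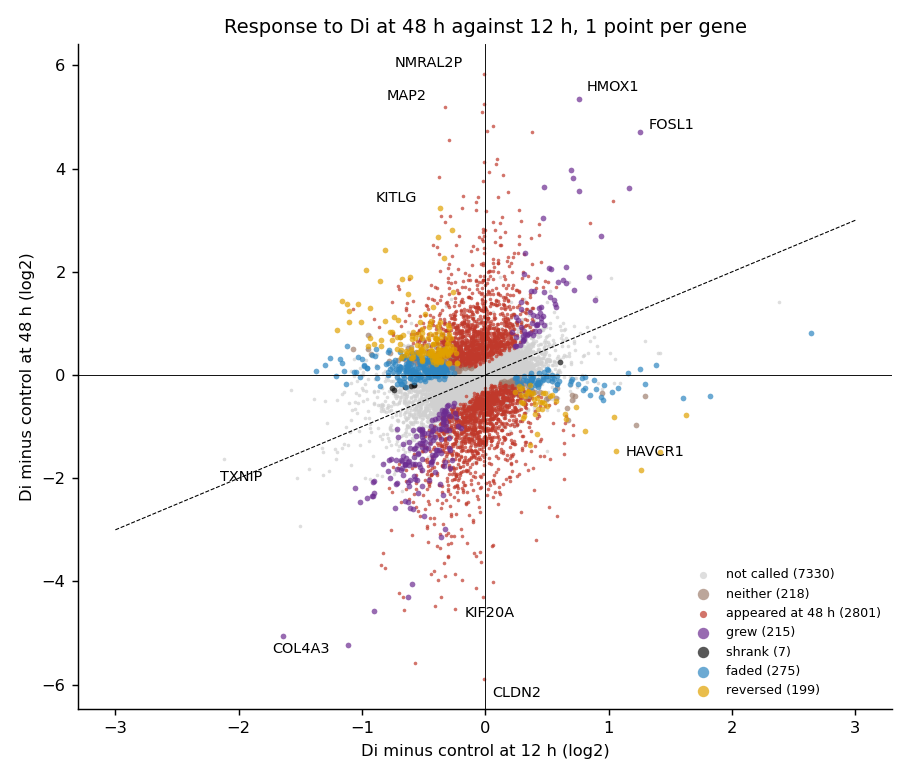
Response to Di at 12 h (horizontal axis) and at 48 h (vertical axis) in log2 units, 1 point for each of the 11045 genes, coloured by class, with equal responses on the dashed line. Most of the 2801 genes that appeared at 48 h lie along the vertical axis, with 12 h responses near 0 and 48 h responses reaching beyond 5 in both directions.

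Targets of NRF2, the transcription factor that turns on glutathione synthesis, quinone reduction and drug efflux when its repressor KEAP1 is modified by electrophiles, rose together at 48 h. The interaction was higher for 26 of the 28 listed genes tested and lower for none, against 17.5% and 16.2% of all genes tested. Their median interaction was 2.12, against 0.03 over all genes tested. At 48 h 27 of the 28 rose (21.4% of all genes), with a median of 2.06. At 12 h 7 rose and 1 fell (3.61% and 8.23% of all genes), with a median of 0.13. In a fit to all arrays of the series, which pools the spread of all 38 groups and called 1296 interactions in all, 20 of the 28 were still called higher.

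The 5′ regions of GCLM, encoding the modifier subunit of glutamate cysteine ligase, and TXNRD1, encoding cytosolic thioredoxin reductase, are shown because both genes rose at both times and both windows hold the core of the antioxidant response element, to which NRF2 binds. The sequences are from RefSeq (GRCh38.p14) and run from 250 bases before to 50 bases after the annotated start. GCLM lies on the minus strand at chr1:93909381-93909680 and TXNRD1 on the plus strand at chr12:104215529-104215828. Capitals mark matches to TGACNNNGC on either strand, 1 in GCLM and 2 in TXNRD1.
GCLM: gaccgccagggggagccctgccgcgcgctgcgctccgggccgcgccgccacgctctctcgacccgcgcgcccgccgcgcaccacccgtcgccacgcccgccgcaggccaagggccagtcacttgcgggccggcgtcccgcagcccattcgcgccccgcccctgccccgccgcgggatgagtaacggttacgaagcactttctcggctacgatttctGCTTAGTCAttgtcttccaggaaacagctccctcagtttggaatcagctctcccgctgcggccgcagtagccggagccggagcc
TXNRD1: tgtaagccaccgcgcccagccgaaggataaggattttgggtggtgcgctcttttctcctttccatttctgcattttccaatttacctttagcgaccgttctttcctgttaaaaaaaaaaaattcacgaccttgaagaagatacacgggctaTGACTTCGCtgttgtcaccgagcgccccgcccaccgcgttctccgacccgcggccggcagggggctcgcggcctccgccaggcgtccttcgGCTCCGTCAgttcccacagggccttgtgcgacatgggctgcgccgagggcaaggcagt
Windows of this kind were found for 22 of the 28 listed genes, and 4 of the 22 (18.2%) hold the motif. This share was near the 13.6% of all 27305 windows and the 15.5% of the 9140 windows of genes tested. The motif was also found in 10 of 34 windows of DNA replication genes and 7 of 31 windows of mitosis genes, whose interactions were mostly lower. The related AP-1 type motif TGANTCA was found in 2 of the 22 (9.09%), against 7.76% of all windows and 4.37% of the windows of genes tested. A match is a description of the letters and no evidence of binding.

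HMOX1, which encodes the haem-degrading enzyme haem oxygenase 1, read 13.75, 13.90 and 13.69 with Di, against 8.43, 8.38 and 8.46 in the controls, at 48 h. Its 12 h levels were 8.81, 8.93 and 8.93 with Di, against 8.20, 8.29 and 7.90 in the controls. Both pairs of groups were well separated, and the 48 h Di arrays stood far above all others. HMOX1 rose by 5.36 ± 0.10 at 48 h and 0.76 ± 0.10 at 12 h, giving an interaction of 4.59 ± 0.14 (adjusted p = 1.86e-11), the largest among genes called the same way at both times. GCLM read 13.38, 13.32 and 13.21 with Di, against 9.69, 9.61 and 9.91 in the controls, at 48 h, and 10.76, 10.83 and 10.76 with Di, against 9.94, 10.01 and 10.12 in the controls, at 12 h. It rose at both times, by 3.57 ± 0.09 at 48 h and 0.76 ± 0.09 at 12 h, with no overlap between Di and control arrays at either time (interaction 2.80 ± 0.12, adjusted p = 4.44e-10). TXNRD1 rose by 2.69 ± 0.08 and 0.94 ± 0.08 at these times (interaction 1.75 ± 0.11, adjusted p = 1.69e-08). The quinone reductase NQO1 and the sulfiredoxin SRXN1 followed the same course, with interactions of 3.17 ± 0.12 (adjusted p = 1.02e-10) and 3.28 ± 0.16 (adjusted p = 1.55e-09).

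Other members were not called at 12 h. GCLC, the catalytic partner of GCLM, read 12.61, 12.57 and 12.64 with Di, against 9.22, 9.11 and 9.13 in the controls, at 48 h, and 8.66, 8.59 and 8.57 with Di, against 8.73, 8.67 and 8.60 in the controls, at 12 h. The 48 h Di arrays exceeded every other array by more than 3 units, while the 12 h groups overlapped. Its interaction was 3.51 ± 0.11 (adjusted p = 1.86e-11), whereas GCLM had risen at 12 h already. AKR1C1, a ketosteroid reductase, read 11.50, 11.36 and 11.35 with Di, against 6.66, 6.24 and 6.83 in the controls, at 48 h, and 8.26, 8.48 and 8.41 with Di, against 8.58, 8.07 and 8.30 in the controls, at 12 h. Between 12 h and 48 h its control level fell by 1.74 (adjusted p = 1.28e-06). The interaction was 4.77 ± 0.25 (adjusted p = 3.97e-09), with 3.73 ± 0.30 for AKR1C2 and 3.91 ± 0.30 (adjusted p = 1.56e-07) for AKR1B10, whose levels were below 4 on the other 9 of the 12 arrays. With CdCl, AKR1B10 read 6.94, 7.25 and 6.74 at 12 h. AKR1C1 and AKR1C2 are near-identical in sequence, so their probe sets may share signal. OSGIN1, an oxidative stress growth inhibitor, rose out of background with an interaction of 4.10 ± 0.23 (adjusted p = 7.47e-09). Averaging all probe sets of a gene instead of using one lowered the interaction of AKR1C1 to 1.72 and that of TXNRD1 to 0.90.

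Among genes picked from the list after their values were seen, NFE2L2, which encodes NRF2 itself, read 12.54, 12.60 and 12.70 with Di, against 12.65, 12.69 and 12.64 in the controls, at 48 h, and 12.08, 11.72 and 12.00 with Di, against 12.06, 12.10 and 11.95 in the controls, at 12 h, with overlap at both times. Its interaction was 0.06 ± 0.14 (adjusted p = 0.785), and its level was higher at 48 h than at 12 h in the controls too, by 0.62 ± 0.10 (adjusted p = 7.77e-05). KEAP1 had an interaction of 1.34 ± 0.14 (adjusted p = 4.47e-06): it rose by 1.09 ± 0.10 at 48 h, when the controls had fallen by 0.74 relative to 12 h. CBR1, a carbonyl reductase, was the only listed gene besides NFE2L2 without a called interaction, and it rose at 48 h by 0.54 ± 0.10 and at 12 h by 0.47 ± 0.10 (interaction 0.07 ± 0.13, adjusted p = 0.734). SLC48A1, a haem transporter, was the single member called lower at 12 h, when it fell by 0.51 ± 0.12, and at 48 h it rose by 0.81 ± 0.12. SLC7A11, the cystine importer, read 12.31, 12.60 and 12.68 with Di, against 10.53, 10.89 and 10.45 in the controls, at 48 h, and 7.42, 6.61 and 7.68 with Di, against 6.21, 6.23 and 6.76 in the controls, at 12 h. The groups separated at 48 h and overlapped at 12 h, although the 12 h rise was called too. The control increase with time, 4.22 ± 0.23, exceeded the interaction of 1.07 ± 0.33 (adjusted p = 0.0195), which was lost without replicate 3 of the 12 h controls (adjusted p = 0.0543). FTL, the ferritin light chain, had an interaction of 0.30 ± 0.08 (adjusted p = 0.00614). The calls of SLC7A11 and FTL were lost in the fit to all arrays, and the mean of all probe sets gave 1.85 for SLC7A11. NMRAL2P, a pseudogene outside the list and the gene with the largest interaction, read 7.51, 7.77 and 8.11 with Di at 48 h and between 1.95 and 1.97 on the other 9 arrays (interaction 5.84 ± 0.47, adjusted p = 3.19e-07).

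**Figure D2:**
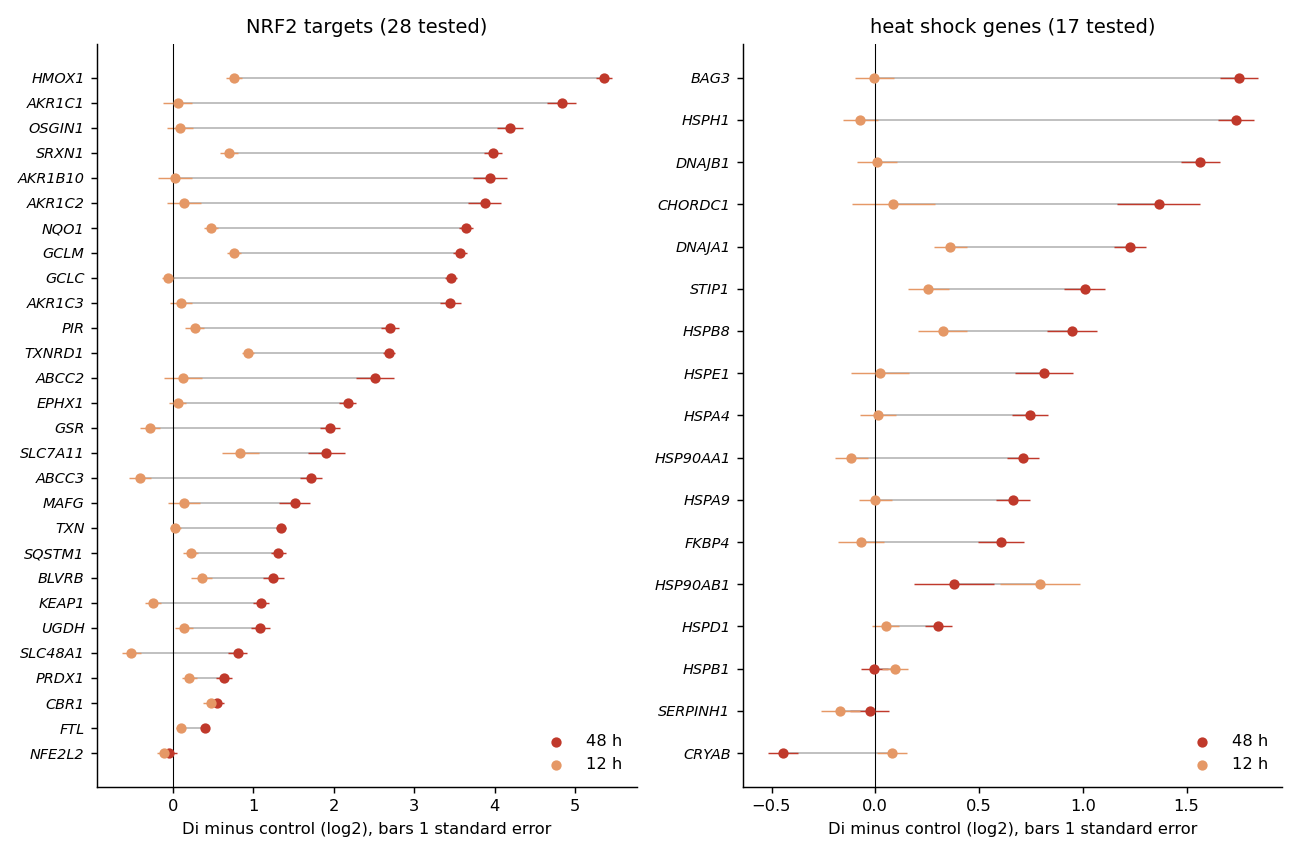
Responses of the 28 tested NRF2 targets (left) and the 17 tested heat shock genes (right) to Di at 48 h (red) and 12 h (orange), as Di minus control in log2 units with bars of 1 standard error. The 12 h points lie between −0.51 and 0.94, while the 48 h points reach 5.36 for HMOX1 and 1.75 for BAG3.

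**Figure D3:**
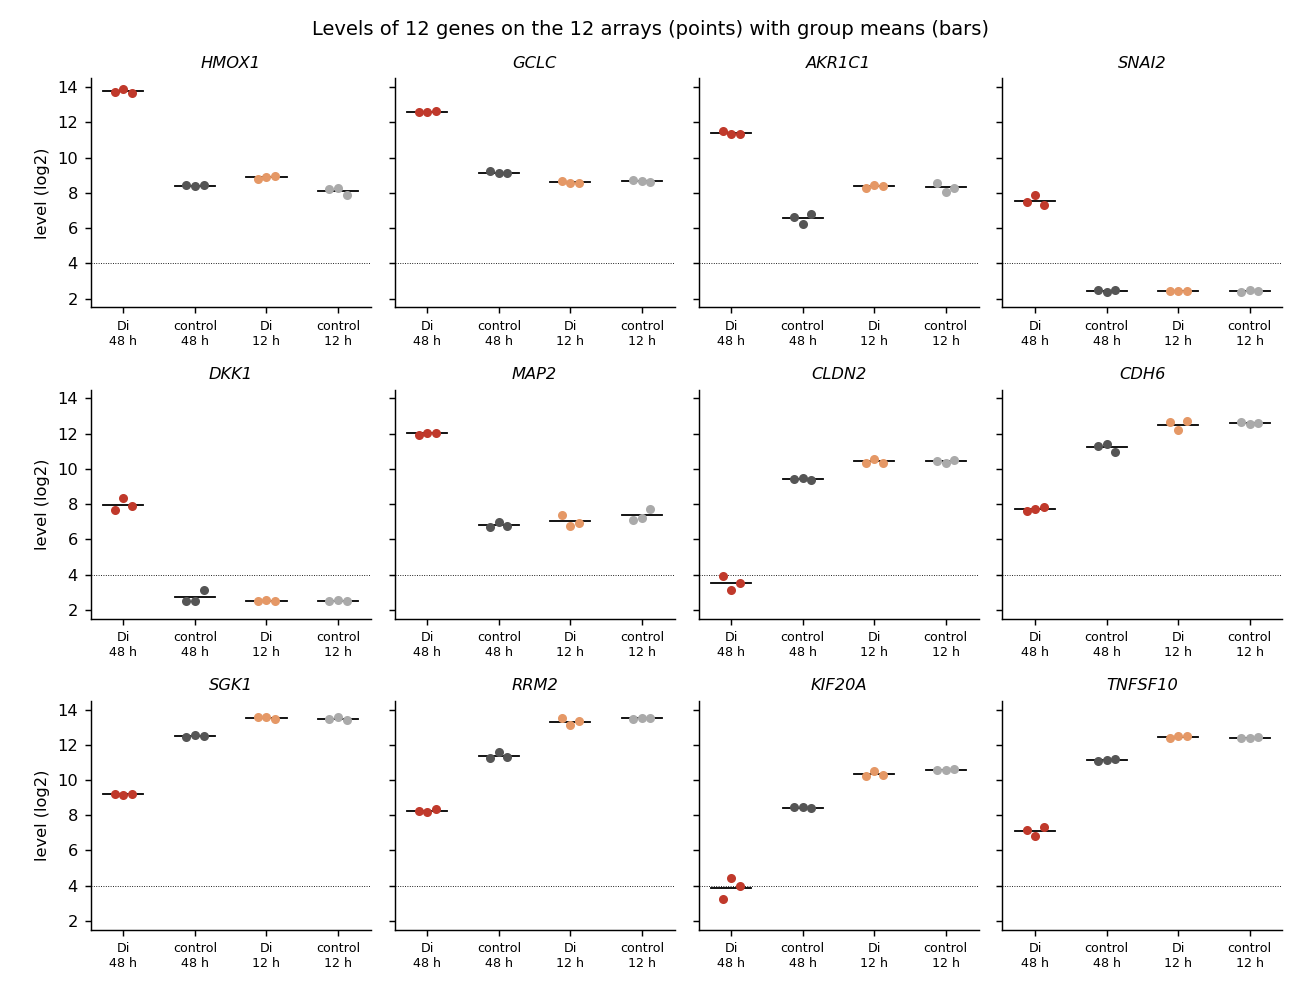
Log2 levels of 12 genes on the 12 arrays, as points with group means as bars and the background level of 4 as a dotted line. In each panel the 3 Di arrays at 48 h stand apart from the 9 others, upward for HMOX1, GCLC, AKR1C1, SNAI2, DKK1 and MAP2 and downward for CLDN2, CDH6, SGK1, RRM2, KIF20A and TNFSF10.

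Enzymes that make NADPH, which thioredoxin reductase and glutathione reductase consume, had higher interactions in 5 of 8 genes tested and lower in none. Malic enzyme ME1 led them, at 1.61 ± 0.10 (adjusted p = 1.38e-08), followed by the pentose phosphate enzymes TALDO1 at 1.30 ± 0.12 (adjusted p = 1.31e-06) and TKT at 0.98 ± 0.12 (adjusted p = 2.66e-05). The mean of all probe sets gave 1.04 for ME1, and leaving out the less specific probe sets, those named _x_at or _s_at, gave 1.60 for TKT. Of 18 other antioxidant enzymes tested, none had a higher interaction and 7 a lower one, and at 48 h 3 of them rose and 9 fell. The plasma glutathione peroxidase GPX3, made mainly by the proximal tubule, read 11.50, 11.31 and 11.40 with Di, against 13.00, 13.01 and 13.01 in the controls, at 48 h, and 12.10, 12.30 and 12.13 with Di, against 12.17, 12.13 and 12.14 in the controls, at 12 h. The controls of GPX3 were higher at 48 h than at 12 h, and Di and control arrays separated at 48 h alone (interaction −1.64 ± 0.17, adjusted p = 3.04e-06). Mitochondrial superoxide dismutase SOD2 had an interaction of −1.0 ± 0.22 (adjusted p = 0.00244), while that of the cytosolic SOD1 was 0.24 ± 0.12 (adjusted p = 0.151). The call of SOD2 was lost in the fit to all arrays.

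Metallothioneins, small cysteine-rich proteins that bind zinc, copper and cadmium, had mostly lower interactions where the NRF2 targets had higher ones. The list of 10 genes tested, which also holds the metal sensor MTF1 and zinc transporters, had 8 lower interactions and 1 higher, with a median of −1.17. In the controls alone 8 of the 10 were lower at 48 h than at 12 h (29.3% of all genes). MT1X read 11.49, 11.41 and 11.38 with Di, against 12.75, 12.68 and 12.75 in the controls, at 48 h, and 13.36, 13.83 and 13.39 with Di, against 13.37, 13.50 and 13.41 in the controls, at 12 h. All 48 h Di arrays were below all of their controls, whereas the 12 h groups overlapped (interaction −1.40 ± 0.14, adjusted p = 2.7e-06). MT1F, MT1G, MT1E and MT2A gave −1.31 ± 0.10, −1.25 ± 0.09, −1.20 ± 0.09 and −0.96 ± 0.09. The median 12 h response of the 10 genes was −0.01. The mean of all probe sets gave −0.63 for MT1G, whose call was lost in the fit to all arrays. Metallothionein genes share most of their sequence, so the probe sets are not independent measures. Without the less specific probe sets 4 of the 10 genes were tested, with 2 higher and 2 lower interactions and a median of −0.13, so the count of lower members rests on those probe sets.

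Heat shock genes, the chaperones and co-chaperones driven by HSF1, rose at 48 h. Of 17 tested, 13 had a higher interaction and 1 a lower one, with a median of 0.73. The lower one, named for that reason, was CRYAB, a small heat shock protein, at −0.53 ± 0.10 (adjusted p = 0.0011). The fit to all arrays called 7 of the 17 higher and no longer called CRYAB. Without the less specific probe sets 4 of 8 were higher and 2 lower, with a median of 0.70. HSPH1, an HSP70 exchange factor, read 12.44, 12.28 and 12.15 with Di, against 10.54, 10.54 and 10.58 in the controls, at 48 h, and 11.26, 11.04 and 11.14 with Di, against 11.20, 11.25 and 11.21 in the controls, at 12 h. The 48 h Di arrays lay above all other arrays, and the controls themselves fell by 0.67 with time (interaction 1.81 ± 0.12, adjusted p = 4.99e-08). The co-chaperone BAG3 gave 1.76 ± 0.13 (adjusted p = 1.38e-07) and DNAJB1, an HSP40, 1.56 ± 0.14 (adjusted p = 6.21e-07). At 12 h, 2 of the 17 had risen and none had fallen.

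The 5′ region of CHORDC1, an HSP90 partner chosen after its value was seen, is shown because it holds 3 overlapping copies of the heat shock element, a GAA, a TTC and a GAA unit with 2 free bases between neighbours. The copies together make up the stretch in capitals. It lies on the minus strand at chr11:90223000-90223299 of GRCh38.p14.
CHORDC1: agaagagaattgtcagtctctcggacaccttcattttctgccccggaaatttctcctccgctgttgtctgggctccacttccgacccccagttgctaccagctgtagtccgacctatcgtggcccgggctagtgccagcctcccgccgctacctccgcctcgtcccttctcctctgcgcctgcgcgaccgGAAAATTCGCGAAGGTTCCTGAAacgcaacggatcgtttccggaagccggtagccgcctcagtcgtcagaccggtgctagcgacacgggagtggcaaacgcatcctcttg
This motif is rare, being present in 0.487% of the 27305 windows and 0.317% of those of genes tested, and in 3 of the 15 windows found for heat shock genes. CHORDC1 read 11.34, 11.51 and 11.19 with Di, against 10.09, 10.11 and 9.74 in the controls, at 48 h, and 10.65, 9.87 and 10.39 with Di, against 10.23, 10.31 and 10.12 in the controls, at 12 h. Only at 48 h did the Di and control arrays separate (interaction 1.28 ± 0.28, adjusted p = 0.00281). The call was lost in the fit to all arrays (adjusted p = 0.0671), and the mean of all probe sets gave 0.65.

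The integrated stress response, in which phosphorylated eIF2 lets ATF4 be translated, had largely risen in the control cultures already. Of its 14 regulators tested, 13 were higher in the 48 h than in the 12 h controls (19.7% of all genes), with a median of 1.70, and Di added called interactions in 4 (higher) and 1 (lower). Di raised 9 of the 14 and lowered 1 at 48 h (21.4% and 25.9% of all genes). At 12 h it raised 5 and lowered 1 (3.61% and 8.23% of all genes). ATF4 read 13.73, 13.56 and 13.64 with Di, against 13.46, 13.38 and 13.22 in the controls, at 48 h, and 11.86, 12.00 and 11.91 with Di, against 11.60, 11.56 and 11.63 in the controls, at 12 h. It rose with Di at both times, by 0.29 ± 0.08 and 0.32 ± 0.08, so that its interaction was −0.04 ± 0.11 (adjusted p = 0.831). ATF3, a stress-induced repressor downstream of ATF4, read 13.09, 13.05 and 13.07 with Di, against 10.06, 10.11 and 10.22 in the controls, at 48 h. At 12 h it read 5.88, 4.69 and 5.79 with Di, against 4.68, 5.16 and 3.98 in the controls, with overlap between the groups, and its interaction was 2.09 ± 0.39 (adjusted p = 0.000727) beside a control increase of 5.52 ± 0.27. PPP1R15A, the phosphatase subunit that ends the response, gave 1.59 ± 0.21 (adjusted p = 3.06e-05). DDIT3, the pro-apoptotic factor CHOP, was the lower one, at −0.35 ± 0.12 (adjusted p = 0.0282). It rose at both times and by less at 48 h, with levels of 13.45 to 13.66 with Di, against 13.23 to 13.34 in the controls, at 48 h. Its call was lost without replicate 1 of the 48 h Di arrays (adjusted p = 0.0529) and in several other settings. The calls of ATF3 and PPP1R15A were lost in the fit to all arrays, and without the less specific probe sets ATF3 gave 3.39.

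ATF4 also raises genes of amino acid supply and tRNA charging. Aminoacyl tRNA synthetases were higher in 10 of 14 tested and lower in none, with a median of 0.49. In the controls alone 12 of the 14 were higher at 48 h than at 12 h and 2 were lower. The shares of all genes were 19.7% and 29.3%, and the control median of the 14 was 1.24. The largest, VARS1, read 8.11, 8.12 and 8.02 with Di, against 7.70, 7.46 and 7.69 in the controls, at 48 h, and 7.39, 7.33 and 7.40 with Di, against 8.06, 8.03 and 7.97 in the controls, at 12 h. The groups separated at both times in opposite directions (interaction 1.11 ± 0.14, adjusted p = 2.13e-05). GARS1 gave 0.81 ± 0.12 (adjusted p = 0.000112). Of 12 amino acid transporters, 4 had a higher interaction and none a lower one, led by SLC6A15 at 0.98 ± 0.12 and SLC3A2, the shared heavy chain of the cystine and leucine exchangers, at 0.87 ± 0.14. Of 12 genes of serine and one-carbon synthesis, 3 had a higher interaction and 1 a lower one, against 17.5% and 16.2% of all genes. At 48 h 4 of these genes rose and 2 fell, with a median of −0.07. Without the less specific probe sets 3 of 9 synthetases were higher, with a median of 0.27. In the fit to all arrays 2 of the 14 synthetases were called, and the calls of VARS1, GARS1, SLC6A15 and SLC3A2 were lost.

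Chaperones and degradation factors of the endoplasmic reticulum had 10 higher interactions of 26 tested and none lower, with a median of 0.27. HYOU1, a lumenal HSP70 relative, rose by 0.63 ± 0.09 at 48 h, beside a control increase of 2.89 ± 0.09 (interaction 0.87 ± 0.13, adjusted p = 0.000124), and DERL1, a channel component for misfolded proteins, gave 0.87 ± 0.10 (adjusted p = 1.45e-05). HSPA5, the main lumenal chaperone BiP, had an interaction of 0.22 ± 0.13 (adjusted p = 0.215). Of the secreted hormones induced by stress, 4 of 6 had a higher interaction and none a lower one. STC2, stanniocalcin 2, read 10.58, 10.47 and 10.44 with Di, against 7.87, 7.61 and 7.51 in the controls, at 48 h, and 4.85, 4.56 and 4.18 with Di, against 4.77, 4.41 and 4.47 in the controls, at 12 h, so that the groups overlapped at 12 h and separated by a rise of 2.83 at 48 h (interaction 2.86 ± 0.25, adjusted p = 6.31e-07). ADM, the vasodilator adrenomedullin, gave 2.70 ± 0.20 (adjusted p = 1.67e-07). GDF15, a circulating signal of cell stress, rose at both times, by 2.10 ± 0.09 at 48 h and 0.65 ± 0.09 at 12 h (interaction 1.45 ± 0.12, adjusted p = 5.66e-07). Proteasome subunits, which NRF2 and its relative NRF1 can induce, had 6 higher and 2 lower interactions among 27, against 17.5% and 16.2% of all genes tested, so the higher share was near that of all genes. Of the 27, 17 rose at 48 h and 7 at 12 h (21.4% and 3.61% of all genes). The calls of HYOU1 and GDF15 were lost in the fit to all arrays, and the mean of all probe sets gave 0.86 for GDF15.

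Genes of the cell cycle fell, on top of a fall in the controls. DNA replication genes had lower interactions in 29 of 38 tested and higher in none, with a median of −1.07, and mitosis genes in 31 of 36 and none, with a median of −1.02. In the control cultures alone 35 of the 38 and all 36 were lower at 48 h than at 12 h, with medians of −1.54 and −1.90. On the Di arrays the corresponding medians were −2.83 and −2.92. At 12 h Di lowered 3 of the 38 and 7 of the 36, against 8.23% of all genes tested, and raised 1 of the 38. The fit to all arrays called 19 and 17 of them lower.

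RRM2, the small subunit of ribonucleotide reductase, read 8.24, 8.19 and 8.34 with Di, against 11.24, 11.60 and 11.29 in the controls, at 48 h, and 13.52, 13.11 and 13.32 with Di, against 13.47, 13.52 and 13.51 in the controls, at 12 h. The 48 h Di arrays were lowest and the 48 h controls intermediate, and at 12 h the groups overlapped (interaction −2.93 ± 0.16, adjusted p = 5.19e-09). The G1/S cyclin CCNE2 gave −2.72 ± 0.24 (adjusted p = 6.63e-07) and the replicative helicase subunits MCM7 and MCM2 gave −2.65 ± 0.13 and −1.32 ± 0.13. KIF20A, a kinesin of cytokinesis, read 3.26, 4.45 and 3.98 with Di, against 8.46, 8.45 and 8.40 in the controls, at 48 h, and 10.24, 10.50 and 10.25 with Di, against 10.56, 10.56 and 10.60 in the controls, at 12 h. It reached the background of the arrays with Di at 48 h, and at 12 h its Di arrays lay just below the controls without being called, with adjusted p = 0.476 (interaction −4.30 ± 0.29, adjusted p = 4.66e-08). KIF11, the spindle kinesin Eg5, gave −1.77 ± 0.15 (adjusted p = 4.89e-07). The phosphatase CDC25C and the kinetochore motor CENPE gave −1.94 ± 0.20 and −2.10 ± 0.51, while the proliferation marker MKI67 and the mitotic cyclin CCNB1 gave −1.07 ± 0.22 and −1.10 ± 0.11. At 12 h MKI67 also fell by 0.65 ± 0.16 (adjusted p = 0.0156). Its interaction was no longer called in the fit to all arrays, and the mean of all probe sets gave −1.18 for CDC25C. Genes of homologous recombination and the Fanconi pathway had 5 lower interactions of 16 and none higher, led by the helicase BRIP1 at −2.35 ± 0.39 (adjusted p = 0.000275).

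The 5′ regions of RRM2, KIF20A and KIF11 are shown because they hold elements typical of cell cycle promoters. All lie on the plus strand of GRCh38.p14, RRM2 at chr2:10122489-10122788, KIF20A at chr5:138178862-138179161 and KIF11 at chr10:92592880-92593179. Capitals mark CCAAT boxes, written ATTGG where they lie on the other strand, and in KIF11 also the cell cycle homology region TTTGAA, written TTCAAA on the other strand.
RRM2: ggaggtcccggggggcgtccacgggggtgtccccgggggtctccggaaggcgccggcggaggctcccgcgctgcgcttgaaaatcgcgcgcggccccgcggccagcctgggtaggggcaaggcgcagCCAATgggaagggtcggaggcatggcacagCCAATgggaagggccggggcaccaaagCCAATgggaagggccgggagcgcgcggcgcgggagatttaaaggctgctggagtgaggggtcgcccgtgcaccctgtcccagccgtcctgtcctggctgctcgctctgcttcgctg
KIF20A: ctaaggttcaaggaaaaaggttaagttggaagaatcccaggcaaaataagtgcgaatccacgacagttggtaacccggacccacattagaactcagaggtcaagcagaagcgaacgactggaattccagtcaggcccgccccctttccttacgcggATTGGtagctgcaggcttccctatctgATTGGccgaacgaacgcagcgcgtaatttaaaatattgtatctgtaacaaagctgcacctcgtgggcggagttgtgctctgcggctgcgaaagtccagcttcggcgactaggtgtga
KIF11: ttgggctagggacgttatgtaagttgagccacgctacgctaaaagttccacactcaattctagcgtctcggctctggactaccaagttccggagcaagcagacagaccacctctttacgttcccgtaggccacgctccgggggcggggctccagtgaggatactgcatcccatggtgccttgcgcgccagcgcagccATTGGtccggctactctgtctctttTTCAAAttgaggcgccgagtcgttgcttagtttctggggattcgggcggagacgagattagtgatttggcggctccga
CCAAT was found in 24 of 31 windows of mitosis genes and 21 of 34 windows of replication genes, against 37.3% of the windows of genes tested. TTTGAA was found in 21 of the 31 mitosis windows and 1 of the 34 replication windows, against 9.57%. The E2F type site TTTGGCGC was found in 1 of the 31 and 8 of the 34, against 1.06%. All motifs were searched on both strands.

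Targets of p53 had 11 higher interactions and 2 lower among 22 tested, against 17.5% and 16.2% of all genes tested, with a median of 0.60. CDKN1A, the CDK inhibitor p21, read 11.81, 11.92 and 11.91 with Di, against 10.02, 10.06 and 10.15 in the controls, at 48 h, and 10.23, 10.12 and 10.38 with Di, against 9.57, 9.72 and 9.68 in the controls, at 12 h. Di and control arrays were apart at both times and further apart at 48 h (interaction 1.21 ± 0.12, adjusted p = 3.01e-06). The exonuclease AEN gave 1.58 ± 0.28 (adjusted p = 0.000563), the kinase PLK2 1.55 ± 0.15 (adjusted p = 2.53e-06), the AKT inhibitor PHLDA3 1.46 ± 0.19 (adjusted p = 3.2e-05) and GADD45A, a growth arrest gene that ATF4 also induces, 1.13 ± 0.16 (adjusted p = 5.85e-05). The other brakes and drivers of G1 had 2 higher and 3 lower interactions of 15, both near the shares of all genes tested. The 2 higher ones were the inhibitor CDKN2B at 2.67 ± 0.35 (adjusted p = 3.36e-05) and cyclin CCND1 at 1.90 ± 0.20 (adjusted p = 4.87e-06). CCND1 fell in the controls with time and stayed near its 12 h level with Di. Among apoptosis regulators, with 6 higher and 2 lower of 19, the death ligand TNFSF10 (TRAIL) read 7.16, 6.82 and 7.35 with Di, against 11.08, 11.12 and 11.18 in the controls, at 48 h, and 12.38, 12.49 and 12.52 with Di, against 12.40, 12.37 and 12.43 in the controls, at 12 h. At 48 h it fell by 4.02 ± 0.13, and at 12 h the groups overlapped (interaction −4.08 ± 0.18, adjusted p = 7.43e-10). The BH3-only gene HRK gave 2.72 ± 0.35 (adjusted p = 2.65e-05) from a level below 4 at 12 h, and the mean of all probe sets gave 1.13 for HRK and 1.62 for CDKN2B. In the fit to all arrays 4 of the 22 p53 targets were called higher, against 677 of all 11045 genes, and the calls of CDKN1A, PLK2, GADD45A and CDKN2B were lost.

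Growth factor signalling genes mostly rose at 48 h. Of 9 EGF family members 8 rose and 1 fell, and of 13 ERK feedback genes 9 rose and 2 fell, against 21.4% of all genes tested rising and 25.9% falling. Of the 9 EGF family ligands and receptors tested, 7 had a higher interaction and 1 a lower one, with a median of 0.82, and of the 13 genes that restrain ERK signalling 8 were higher and 2 lower. BTC, the ligand betacellulin, read 8.30, 8.49 and 8.57 with Di, against 6.87, 6.53 and 6.36 in the controls, at 48 h, and 4.13, 4.02 and 4.86 with Di, against 4.90, 4.76 and 5.37 in the controls, at 12 h. It rose at 48 h and fell at 12 h, where 1 Di array lay within the control range (interaction 2.54 ± 0.28, adjusted p = 7.76e-06). EGF and TGFA gave 1.77 ± 0.43 and 1.32 ± 0.13. DUSP5, a nuclear ERK phosphatase, read 11.80, 11.66 and 11.41 with Di, against 8.01, 8.06 and 8.14 in the controls, at 48 h, and 9.20, 9.13 and 8.94 with Di, against 8.84, 8.94 and 8.93 in the controls, at 12 h. The 48 h Di arrays were the highest of the 12 by more than 2 units (interaction 3.37 ± 0.14, adjusted p = 4.13e-10). DUSP6, its cytoplasmic relative, went the other way at −1.72 ± 0.15 (adjusted p = 6.6e-07), as did the receptor antagonist SPRY1 at −2.34 ± 0.51 (adjusted p = 0.00236), whereas its relative SPRY4 gave 1.65 ± 0.27 (adjusted p = 0.000244). In the fit to all arrays 4 of the 9 EGF family members were called higher and none lower. Of the 13 ERK feedback genes, 3 were called higher and 1 lower. Of all 11045 genes that fit called 677 higher and 619 lower. It no longer called DUSP6 or SPRY4, and the mean of all probe sets gave −1.25 for SPRY1.

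Immediate early genes, which growth factors and stress switch on within minutes, were divided, with 9 higher and 5 lower interactions among 19. FOSL1, an AP-1 subunit, read 8.05, 7.96 and 7.37 with Di, against 3.93, 2.66 and 2.68 in the controls, at 48 h, and 6.06, 6.19 and 6.05 with Di, against 5.07, 4.99 and 4.49 in the controls, at 12 h. The groups separated at both times, and by 48 h the Di arrays had increased while the controls had fallen to background (interaction 3.45 ± 0.39, adjusted p = 8.97e-06). KLF4 and JUN gave 2.23 ± 0.21 and 1.43 ± 0.20. EGR1, an early target of ERK, read 8.57, 8.68 and 8.77 with Di, against 10.89, 10.96 and 10.84 in the controls, at 48 h, and 11.24, 11.39 and 11.40 with Di, against 10.71 to 11.15 in the controls, at 12 h, so that its 48 h Di arrays were the lowest of the 12, while the 12 h Di arrays lay above their controls (interaction −2.61 ± 0.18, adjusted p = 6.07e-08). The 12 h response of EGR1 was not called. FOS rose at 12 h by 0.81 ± 0.16 (adjusted p = 0.00627) and its 48 h response was −0.26 ± 0.16 (adjusted p = 0.204). The mean of all probe sets gave −1.48 for EGR1, and the interaction of FOS was not called in the fit to all arrays.

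Several genes of epithelial identity fell at 48 h, some of them to background. CLDN2, the claudin that makes the proximal tubule's tight junctions permeable to cations, had the most negative interaction of all genes tested. It read 3.94, 3.14 and 3.54 with Di, against 9.42, 9.50 and 9.35 in the controls, at 48 h, and 10.36, 10.56 and 10.34 with Di, against 10.46, 10.34 and 10.50 in the controls, at 12 h. The 48 h Di arrays lay below 4 and the 12 h groups overlapped (interaction −5.87 ± 0.27, adjusted p = 9.33e-10). The cadherin CDH6, an early proximal tubule gene, read 7.59, 7.71 and 7.81 with Di, against 11.27, 11.39 and 10.97 in the controls, at 48 h, and 12.65, 12.19 and 12.71 with Di, against 12.64, 12.53 and 12.60 in the controls, at 12 h, and 5 of its 6 probe sets had a negative interaction (interaction −3.43 ± 0.19, adjusted p = 7.47e-09). SNAI2, a repressor of epithelial junction genes, read 7.46, 7.89 and 7.31 with Di, against 2.49, 2.40 and 2.49 in the controls, at 48 h, and 2.40 to 2.49 on the 6 arrays of 12 h. It was at background everywhere outside the 48 h Di arrays (interaction 5.12 ± 0.35, adjusted p = 6.07e-08). E-cadherin, CDH1, had an interaction of −0.93 ± 0.34 (adjusted p = 0.0474), which was lost without replicate 1 of the 48 h Di arrays (adjusted p = 0.117) and in most other settings. Over the 28 junction genes tested, 9 interactions were higher and 8 lower.

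Several solute carriers of the proximal tubule fell as well. Of 29 listed proximal tubule genes on the arrays 10 were tested, of which 7 fell and 3 rose at 48 h, and 5 had a lower interaction and 2 a higher one, with a median of −0.86. The higher ones were VDR, the vitamin D receptor, at 1.81 ± 0.21 (adjusted p = 9.42e-06), and the transcription factor PAX8 at 0.61 ± 0.10 (adjusted p = 0.000346), and neither was called in the fit to all arrays. Averaging all probe sets left 8 genes tested, 5 of them lower and none higher, with a median of −0.52, and gave 0.08 for PAX8. The sodium bicarbonate cotransporter SLC4A4 read 9.72, 9.56 and 9.76 with Di, against 12.76, 12.82 and 12.80 in the controls, at 48 h, and 11.77, 11.84 and 11.95 with Di, against 12.09, 12.23 and 12.01 in the controls, at 12 h. The Di arrays lay below their controls at both times, and further at 48 h, while the 12 h difference was not called (interaction −2.86 ± 0.12, adjusted p = 4.13e-10). The urate and phosphate transporters SLC17A1 and SLC17A3 gave −3.88 ± 0.37 (adjusted p = 1.85e-06) and −4.29 ± 0.22 (adjusted p = 2.65e-09), SLC17A1 falling to background and SLC17A3 close to it. SLC3A1, the cystine transporter subunit mutated in cystinuria, gave −2.24 ± 0.18 and the GABA and betaine family transporter SLC6A13 gave −3.46 ± 0.21 (adjusted p = 1.77e-08). The scaffold PDZK1 and the creatine synthesis enzyme GATM gave −1.68 ± 0.15 and −1.38 ± 0.24. The homeobox genes IRX3 and IRX5, neighbours in the genome, gave −3.10 ± 0.17 (adjusted p = 6.85e-09) and −4.04 ± 0.38 (adjusted p = 1.23e-06), and CYS1, which encodes the ciliary protein cystin, gave −3.67 ± 0.21 (adjusted p = 7.47e-09). Averaging all probe sets brought SLC17A1 to −1.76 and SLC3A1 to −0.68, and leaving out the less specific probe sets brought SLC6A13 to −1.21. The calls of PDZK1 and GATM were lost in the fit to all arrays.

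The summed level of the 14 epithelial markers was 91.3 to 91.8 with Di, against 98.3 to 98.5 in the controls, at 48 h, and 98.6 to 99.3, against 99.2 to 99.8, at 12 h. Among them, at 48 h CDH6 fell by 3.51 ± 0.14, CDH16 fell by 2.28 ± 0.17 and KRT19 fell by 1.20 ± 0.07, and EPCAM fell by 0.54 ± 0.16. PAX8 and KRT18 rose by 0.38 ± 0.07 and 0.25 ± 0.07, and the response of KRT8 was 0.13 ± 0.09 (adjusted p = 0.231). The interaction of KRT19 was −1.14 ± 0.10, or −0.63 as the mean of all probe sets, and that of CDH16, −1.73 ± 0.24, was not called in the fit to all arrays. The 8 fibroblast and smooth muscle markers, of which COL1A1, DCN, LUM and ACTA2 were above 4 on all 12 arrays and the other 4 below it, summed to 42.3 to 43.3 with Di, against 44.9 to 45.1 in the controls, at 48 h, and to 46.4 to 48.1, against 48.0 to 48.3, at 12 h. The part of these markers in the other results was not tested.

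Kidney injury markers had 3 higher and 6 lower interactions among 18, against 17.5% and 16.2% of all genes tested. At 48 h 4 of them rose and 9 fell, against 21.4% and 25.9% of all genes. The shares with a higher interaction and with a rise were thus near those of all genes. HAVCR1, the injury marker KIM-1, read 8.54, 9.08 and 8.88 with Di, against 10.23, 10.43 and 10.23 in the controls, at 48 h, and 10.92, 10.84 and 10.87 with Di, against 9.65, 10.05 and 9.76 in the controls, at 12 h. It was separated from the controls at both times, downward at 48 h and upward at 12 h (interaction −2.52 ± 0.19, adjusted p = 1.38e-07). The leukocyte adhesion receptor VCAM1 gave −4.07 ± 0.45 (adjusted p = 6.94e-06) and CD24, a surface glycoprotein of renal progenitors, −3.35 ± 0.11 (adjusted p = 2.21e-11). Matrix and TGF-beta genes had 10 higher and 5 lower interactions among 23, and 1 higher and 3 lower in the fit to all arrays. ID1, a target of BMP signalling, gave −3.32 ± 0.29 (adjusted p = 6.89e-07) and the matricellular gene CCN1 1.53 ± 0.21 (adjusted p = 5.25e-05). COL4A3, a chain of mature glomerular and tubular basement membrane, read 2.61, 3.20 and 3.62 with Di, against 8.50, 8.50 and 8.15 in the controls, at 48 h, and 6.70, 5.86 and 6.53 with Di, against 7.44, 7.40 and 7.59 in the controls, at 12 h. It fell at both times and reached background at 48 h (interaction −4.12 ± 0.48, adjusted p = 1.08e-05). Of the plasminogen activator genes, the protease inhibitor SERPINE2 gave 3.07 ± 0.10 (adjusted p = 3.94e-11) and PLAU and PLAT, encoding urokinase and tissue plasminogen activator, 1.25 ± 0.14 and −1.58 ± 0.30. The calls of CCN1, PLAU and PLAT were lost in the fit to all arrays.

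Several of the largest changes lay outside these groups. DKK1, a Wnt antagonist, read 7.64, 8.36 and 7.89 with Di, against 2.51, 2.48 and 3.14 in the controls, at 48 h, and 2.50 to 2.56 on the 12 h arrays, so that it too was detected with Di at 48 h alone (interaction 5.27 ± 0.41, adjusted p = 1.93e-07). MAP2, a microtubule protein of dendrites, read 11.94, 12.06 and 12.04 with Di, against 6.72, 7.00 and 6.73 in the controls, at 48 h, and 7.38, 6.77 and 6.93 with Di, against 7.10, 7.22 and 7.74 in the controls, at 12 h. The 48 h Di arrays were more than 4 units above the rest (interaction 5.52 ± 0.24, adjusted p = 4.13e-10). The Wnt and growth factor coreceptor GPC1 gave 4.72 ± 0.26 (adjusted p = 6.28e-09), the adenosine receptor ADORA2B 4.33 ± 0.37 (adjusted p = 4.76e-07), the kynurenine pathway enzyme KYNU 4.22 ± 0.42 (adjusted p = 2.3e-06) and the antisense transcript MSC-AS1 4.86 ± 0.36 (adjusted p = 1.29e-07). The strand to which the MSC-AS1 probes bind was not checked here. TMT1A, a thiol methyltransferase, was among the largest falls, with 4.16, 4.15 and 4.14 with Di, against 9.67, 9.79 and 9.72 in the controls, at 48 h (interaction −5.01 ± 0.35, adjusted p = 7.28e-08), and FRMD4B, a FERM domain scaffold, gave −3.95 ± 0.29 (adjusted p = 1.29e-07). Averaging all probe sets gave −1.31 for TMT1A and −1.30 for FRMD4B. For KYNU the mean of all probe sets gave 2.37.

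Of 8 glucocorticoid targets, in cells whose medium held hydrocortisone, 5 fell and 2 rose at 48 h, with 4 lower and 2 higher interactions. SGK1, a kinase that raises sodium transport, read 9.21, 9.17 and 9.21 with Di, against 12.45, 12.56 and 12.48 in the controls, at 48 h, and 13.55, 13.58 and 13.47 with Di, against 13.46, 13.55 and 13.39 in the controls, at 12 h, its 48 h Di arrays being the lowest by more than 3 units (interaction −3.36 ± 0.12, adjusted p = 5.39e-11). TSC22D3 (GILZ) and FKBP5 gave −1.65 ± 0.20 and −1.05 ± 0.18, whereas DUSP1 gave 1.78 ± 0.15. DUSP1 also belongs to the ERK feedback list. Of 13 clock genes, PER2 gave −2.14 ± 0.46 (adjusted p = 0.00227), with the 48 h controls above all other arrays, and BMAL1 gave 1.77 ± 0.19 (adjusted p = 6.61e-06). The mean of all probe sets gave −1.06 for PER2, 0.98 for DUSP1 and −0.95 for TSC22D3.

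Lysosome and autophagy genes had 17 higher and 3 lower interactions among 33, against 17.5% and 16.2% of all genes tested, with a median of 0.37. The protease CTSL gave 2.07 ± 0.15 (adjusted p = 1.36e-07), the autophagosome proteins WIPI1 and MAP1LC3B 1.12 ± 0.13 and 0.79 ± 0.11, and the fit to all arrays called 3 of the 33, without WIPI1 and MAP1LC3B. Of 16 genes of the citric acid cycle, 7 had a lower interaction and none a higher one, led by mitochondrial isocitrate dehydrogenase IDH2 at −1.51 ± 0.21 (adjusted p = 5.62e-05). Respiratory chain subunits had 8 lower and 1 higher of 34, against 16.2% and 17.5% of all genes tested, so the lower share was not far above that of all genes. Glycolysis genes had 5 higher and 4 lower of 20, both near the 17.5% and 16.2% of all genes tested, and 3 higher and none lower of 9 without the less specific probe sets. Among them were the glucose transporter SLC2A1 at 1.52 ± 0.17 (adjusted p = 6.27e-06) and hexokinase HK2 at 1.06 ± 0.19 (adjusted p = 0.000637). Cholesterol synthesis genes had 7 lower and 2 higher of 19, led by the sterol reductase TM7SF2 at −2.35 ± 0.17 (adjusted p = 1.28e-07), but 2 lower and 2 higher of 13 without the less specific probe sets. Interferon-induced genes had 8 lower and 3 higher of 28, with IFI44 at −2.36 ± 0.34 (adjusted p = 8.69e-05) and CMPK2 at −2.06 ± 0.37 (adjusted p = 0.000591). The mean of all probe sets gave 0.77 for SLC2A1, 0.51 for HK2 and −1.19 for IFI44.

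**Figure D4:**
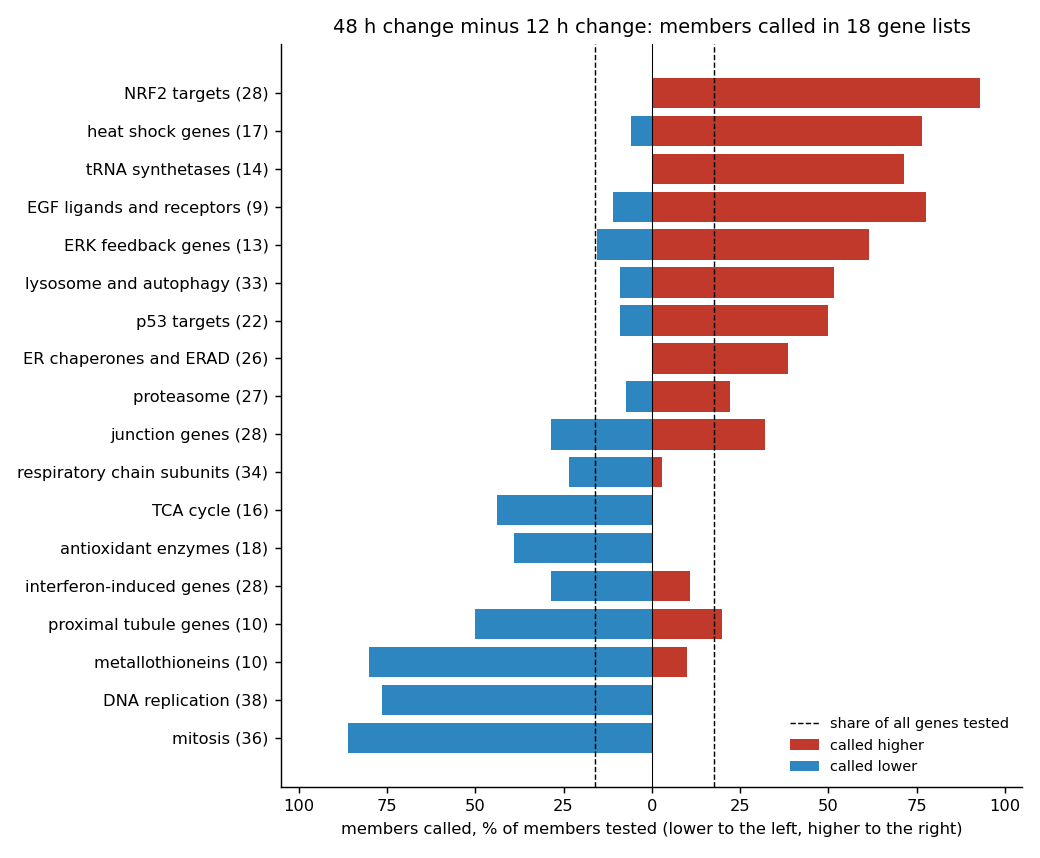
Share of the tested members of 18 gene lists with a called interaction, higher to the right in red and lower to the left in blue, with the shares of all 11045 genes (17.5% and 16.2%) as dashed lines. NRF2 targets, heat shock genes and EGF ligands and receptors reach furthest to the right, and mitosis, metallothioneins and DNA replication furthest to the left.

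Some genes responded at 12 h already, at that time alone or at both times. The 12 h calls behind these classes depended on the processing, as given above. Genes whose 12 h response was no longer called at 48 h included ZNF652, a zinc finger repressor, which read 8.71, 9.50 and 9.35 with Di, against 9.78, 9.75 and 9.37 in the controls, at 48 h, and 9.32, 8.88 and 9.18 with Di, against 7.64, 7.67 and 7.27 in the controls, at 12 h. It rose with Di at 12 h, where the groups were separate, and they overlapped at 48 h, when the controls were higher than at 12 h (interaction −2.04 ± 0.27, adjusted p = 3.57e-05). TLN1, the integrin adaptor talin 1, at 12 h fell by 1.13 ± 0.26 (adjusted p = 0.0136) and had a 48 h response of 0.57 ± 0.26 (adjusted p = 0.084). TXNIP, a thioredoxin inhibitor that glucose induces, read 2.30, 1.98 and 1.89 with Di, against 3.18, 4.27 and 3.60 in the controls, at 48 h, and 7.99, 7.96 and 7.79 with Di, against 10.01, 10.10 and 9.98 in the controls, at 12 h. It fell at both times, although both 48 h means were below 4, and in the controls it fell by 6.35 ± 0.27 between 12 h and 48 h (interaction 0.49 ± 0.38, adjusted p = 0.353). Its relative ARRDC4 at 12 h fell by 1.30 ± 0.19 and was at background at 48 h in both groups. Of the 7 genes with a smaller response at 48 h, CERCAM, MAN1B1, MCAM and FASN had interactions of 0.50, 0.45, 0.42 and 0.39, all from falls at both times. The calls of ARRDC4 and of these 4 genes were lost in the fit to all arrays. The mean of all probe sets gave 0.26 for CERCAM, 0.22 for MCAM and 0.21 for FASN. For ZNF652 it gave −1.29.

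Among the 199 genes that responded in opposite directions, KITLG, the ligand of the KIT receptor, read 12.20, 12.14 and 12.07 with Di, against 8.89, 8.93 and 8.88 in the controls, at 48 h, and 9.92, 9.85 and 9.94 with Di, against 10.15, 10.27 and 10.38 in the controls, at 12 h. The groups did not overlap at either time, and the 12 h fall was small (interaction 3.61 ± 0.12, adjusted p = 2.21e-11). KLHL29, a Kelch family gene, rose by 2.42 ± 0.15 at 48 h and fell by 0.81 ± 0.15 at 12 h (interaction 3.23 ± 0.22, adjusted p = 4.99e-08). NDRG1, a hypoxia and stress gene, rose by 2.27 ± 0.10 at 48 h and fell by 0.34 ± 0.10 at 12 h (interaction 2.61 ± 0.14, adjusted p = 3.44e-09). SPINK13, a protease inhibitor, fell to background at 48 h and rose from near background at 12 h (interaction −3.11 ± 0.44, adjusted p = 6.99e-05). Averaging all probe sets lowered the interaction of KLHL29 to 0.98.

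The same controls allow Di to be set beside CdCl at both times. The difference between the 2 interactions does not contain the controls, since they cancel, and equals the 48 minus 12 h difference of the Di arrays minus that of the CdCl arrays. It was called for 4516 genes (40.9%), 1661 higher for Di (15.0%) and 2855 lower (25.8%). After quantile normalization 2008 were higher and 2396 lower, and the share of higher calls was 45.6%, against 36.8% as deposited. The CdCl interaction itself was called for 3363 genes (30.4%), 2331 higher (21.1%) and 1032 lower (9.34%). Its balance depended on scaling, since quantile normalization changed the share of higher calls to 52.7%, against 69.3% as deposited, and the median over all genes to 0.02, against 0.13. The labels give no dose, so the compounds cannot be compared at matched exposure.

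The median response of the 28 NRF2 targets was 2.06 at 48 h and 0.13 at 12 h with Di, and 0.97 and 1.09 with CdCl, and the difference of interactions was higher for Di in 25 of the 28 (15.0% of all genes). HMOX1 rose with CdCl by 6.02 ± 0.10 at 48 h and 6.14 ± 0.10 at 12 h, beside rises of 5.36 ± 0.10 and 0.76 ± 0.10 with Di (difference of interactions 4.72 ± 0.14, adjusted p = 1.27e-11). For the 17 heat shock genes the medians were 0.74 and 0.02 with Di and 0.58 and 1.18 with CdCl, and 14 differed, all higher for Di (15.0% of all genes). The median response of the 10 metallothionein list genes was −1.20 at 48 h and −0.01 at 12 h with Di, and 2.09 and 1.65 with CdCl, and the difference of interactions was lower for Di in 7 of them (25.8% of all genes). Mitosis genes had medians of −1.20 and −0.25 with Di and −0.74 and −0.92 with CdCl, and 31 of 36 had a lower interaction for Di (25.8% of all genes). For the 10 proximal tubule genes the medians were −1.13 and −0.24 with Di and −0.99 and −0.06 with CdCl. Their difference of interactions was higher for Di in 3 and lower in 3 (15.0% and 25.8% of all genes), with a median of 0.01. The 8 glucocorticoid targets had medians of −0.74 and −0.12 with Di and −0.79 and −0.29 with CdCl. Of these, 2 had a higher difference of interactions and 1 a lower one, with a median of −0.01.

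ATF3 had the largest difference of interactions. It read 13.09, 13.05 and 13.07 with Di at 48 h and 5.88, 4.69 and 5.79 at 12 h, and 12.10, 12.11 and 12.02 with CdCl at 48 h and 11.72, 11.81 and 11.77 at 12 h. With CdCl it was already high at 12 h, and with Di it was not (difference of interactions 7.31 ± 0.39, adjusted p = 2.79e-09). AKR1B10 and CLIP4, a microtubule linker protein, gave 7.25 ± 0.30 (adjusted p = 2.48e-10) and 6.08 ± 0.31 (adjusted p = 1.83e-09), and MAP2 5.96 ± 0.24 (adjusted p = 2.16e-10). HSPA6, an inducible HSP70, gave 5.42 ± 0.53 (adjusted p = 1.74e-06). KIF20A at −4.15 ± 0.29 (adjusted p = 5.39e-08), SLC17A3 at −4.08 ± 0.22 (adjusted p = 2.71e-09) and the secreted matrix gene CTHRC1 at −4.17 ± 0.37 (adjusted p = 7.36e-07) lay at the other end, as did the cytokine signalling inhibitor SOCS2 at −3.94 ± 0.41 (adjusted p = 3.52e-06) and the GTPase RAB39B at −3.86 ± 0.65 (adjusted p = 0.000261), whose Di interactions were not called. For SLC4A4 and VCAM1 no difference from CdCl was called. SLC4A4 gave 0.19 ± 0.12 (adjusted p = 0.232) and VCAM1 −1.07 ± 0.45 (adjusted p = 0.0705).

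**Figure D5:**
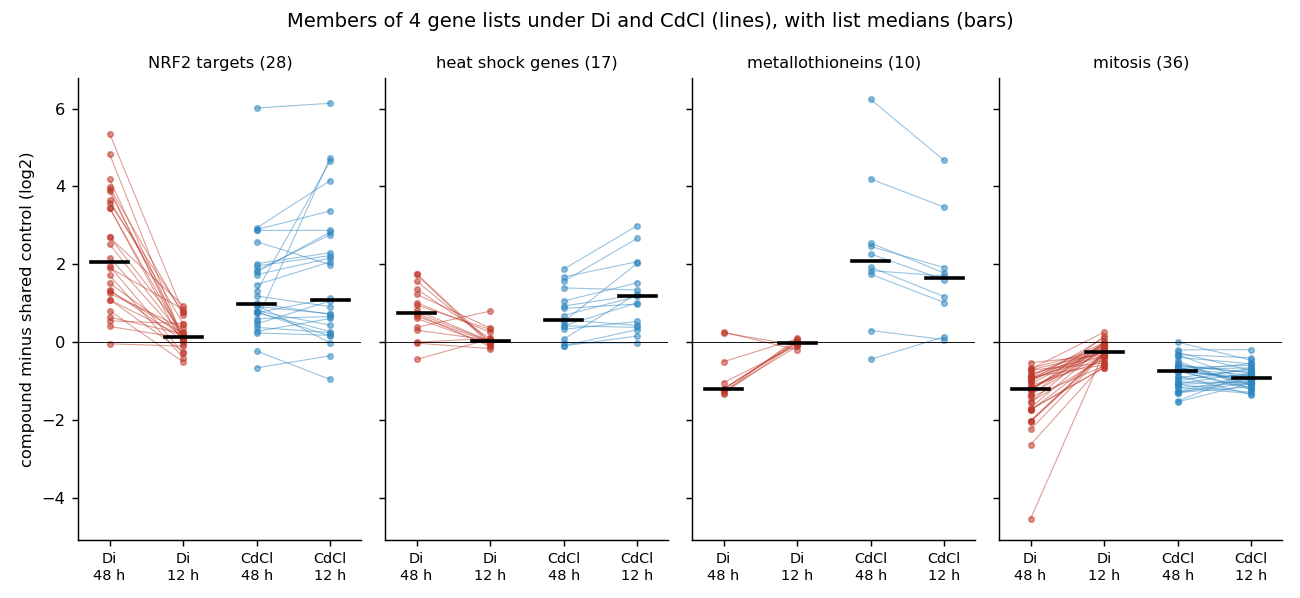
Responses of the members of 4 gene lists to Di (red) and CdCl (blue) at 48 h and 12 h, as compound minus shared control in log2 units, with lines joining the 2 times of a gene and black bars at list medians. The metallothionein medians are −1.20 at 48 h and −0.01 at 12 h with Di, against 2.09 and 1.65 with CdCl.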

How the data were processed

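Expression in HK-2 cells was measured on Affymetrix arrays of 54675 probe sets. The authors deposited log2 values, made with GCRMA per the submitters' processing notes and normalized together over all arrays per the series' design text, in 1 value per probe set and array. The GCRMA version, the scans' batches and the scanner files are not given in the sources used here. The number of arrays limits the precision, and the labels call the replicates biological.

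Probe sets with 1 gene symbol in the platform annotation (41091) stood for 19775 genes, 1801 probe sets with several symbols and 11721 without one being left out. Of several probe sets the one brightest on average over all arrays of the series stood for the gene. Genes above log2 4 on at least 3 of the 18 arrays of Di, CdCl and their shared controls were tested, 11045 in all. A model of 6 group means was fitted to the 18 arrays with lmFit and eBayes of limma 3.58.1 in R 4.3.3. P-values were adjusted by Benjamini-Hochberg over all genes tested. The steps were tested on simulated data. Summaries used pandas 2.3.3 and numpy 2.4.6 in Python 3.11.15, and plots matplotlib 3.10.9.

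The comparison, its 44 gene lists and the tests were chosen with earlier results of these data known. Lists were written from general knowledge, and 751 of their 931 genes were tested. List counts and medians are descriptions. Genes were named by rank: the 10 largest called interactions each way with Di arrays outside the control range, the 6 largest each way among genes above log2 6 in all 4 groups, the 3 largest called members of each list with its first regulators, the 4 largest of each class, and the 5 largest differences from CdCl each way. The text prints part of these, leaving out further members of lists and classes by choice, with values known. GCLM, TXNRD1, NQO1, SRXN1, NFE2L2, KEAP1, CBR1, SLC48A1, SLC7A11, FTL, CRYAB, CHORDC1, DDIT3, MT2A, KIF11, MKI67, CCNB1, GADD45A, JUN, DUSP6, SPRY4, PDZK1, GATM, CDH16, KRT19, KRT8, KRT18, EPCAM, PAX8 and VDR lie outside this rule and were chosen after their values were seen. Alternatives were the filter, the probe set per gene, quantile normalization, limma's trend option, the arrays in the fit, a replicate block and leaving out single arrays. Leaving out both Di arrays of low upper quartile was added after the data were seen. Promoter windows came from RefSeq (GRCh38.p14) and were matched by gene symbol.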

Additional observations from a re-analysis of the deposited data

Results flagged for a closer look

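Results are listed here because the effect of Di differed between times or from CdCl by a test of the difference itself. The response to Di differed between 48 h and 12 h for 3715 genes. The change between 48 h and 12 h differed between Di and CdCl for 4516 genes. Of the 3715 genes, 199 were called in opposite directions at 48 h and 12 h. In 157 of them the interaction was higher, with a fall at 12 h and a rise at 48 h. The class rests on the 12 h calls, of which 909 were downward as deposited and 602 after quantile normalization. Its size under other processing was not counted. The 4 largest of the 199 were KITLG, with an interaction of 3.61, KLHL29, with 3.23, SERPINE2, with 3.07, and SPINK13, with −3.11. With 3 arrays per group, single arrays far from the others were not tested for.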

How the results depend on the processing

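The count of called interactions, 3715, ranged from 3297 to 3783 when each of the 12 arrays was left out in turn, and was 3742 after quantile normalization, 3492 in a fit to the 12 arrays alone and 3562 without both Di arrays of low upper quartile, an alternative chosen after seeing the data. The fit to all arrays, which estimates the spread from 38 groups, gave the lowest counts: 1296 interactions, of which 97.4% were also called in the 18 arrays, 3077 genes for Di at 48 h, 47 for Di at 12 h, 3258 for the controls at 48 h against 12 h, 1977 for the difference between Di and CdCl and 679 for the CdCl interaction. The 12 h count of 1308 was the least stable: it was 776 without the less specific probe sets and 599 to 1328 when single arrays were left out, 599 without replicate 2 and 702 without replicate 3 of the 12 h controls. The cause was not tested. Single arrays left out gave 4672 to 5539 genes for Di at 48 h, 6325 to 6783 for the Di arrays at 48 h against 12 h, 4788 to 5740 for the controls, 4125 to 4544 for the difference from CdCl and 2957 to 3766 for the CdCl interaction. Quantile normalization made 52.6% of the 12 h calls upward, against 30.5%, and 52.7% of the CdCl interactions higher, against 69.3%.

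Replicate numbers were not taken to pair the arrays. In their deviations from group means, same-numbered Di and control arrays correlated at 0.16, −0.07 and −0.18 at 12 h and 0.00, 0.08 and −0.19 at 48 h. Differently numbered ones ranged from −0.24 to 0.24. With 3 arrays per group the deviations are tied to each other, so these values cannot exclude pairing. With the replicate block 3331 interactions, 4927 genes at 48 h, 790 at 12 h, 5602 for the Di arrays over time, 3861 for the controls over time, 4104 differences from CdCl and 2996 CdCl interactions were called.

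The sign turned in some settings for 4 genes whose interaction was not called. With single arrays left out ATF4 ranged from −0.1019 to 0.0145 and NFE2L2 from −0.0494 to 0.1305. ATF4, at −0.04, gave 0.0034 without replicate 2 of the 48 h Di arrays, 0.0145 without replicate 1 of the 48 h controls and 0.0025 without replicate 2 of the 12 h Di arrays. CBR1 gave −0.0012 without replicate 2 of the 48 h controls and −0.0060 without replicate 1 of the 12 h Di arrays. NFE2L2 gave −0.1078 as the mean of all probe sets, −0.0494 without replicate 2 of the 12 h Di arrays and −0.0126 without both low arrays. RAB39B, at −0.32, ranged from −1.0206 to 0.3036 with single arrays left out, the highest without replicate 1 of the 48 h Di arrays, and gave 0.3162 without both low arrays.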
